A study of Homo sapiens with 6 samples.

Results

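Interferon stimulated genes are the genes that cells switch on when interferon binds its receptors, and 58 of them were followed here in A431 cells, an established human epidermoid carcinoma line that carries very many EGF receptors. The members were a list of gene symbols: the interferon gamma type genes (IRF1 and 5 GBP genes), antigen presentation genes, signalling and sensing genes, and the antiviral type. Each was read from the probe set that the platform annotation pairs with it, which gave values for 56 of the 58, of 17687 genes in all. HLA-B and STAT2 had no named probe set and were not analysed here. Every measured member had 1 probe set.

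The 6 samples fell into 3 groups of 2 arrays. All cells were grown with 10% fetal bovine serum, starved for 24 h and harvested 30 min after treatment, per the labels. The control group had no treatment, EGF cells received epidermal growth factor (EGF) at 100 ng/ml, and EGF plus gefitinib cells received that dose together with gefitinib, which blocks the EGF receptor kinase, at 10 µM. Which agent was added first is not stated in the labels. A single line was used, so it stands for itself. The arrays of a group are labelled biological replicates, yet the labels do not speak of separate cultures, so p-values reflect only array-to-array spread that could be technical.

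Type I and type III interferons act through JAK1 and TYK2, which phosphorylate STAT proteins. With IRF9 these form a complex that binds the interferon stimulated response element (ISRE) of antiviral genes. Interferon gamma acts through JAK1 and JAK2 and the gamma activated site (GAS) of its target genes, and it induces IRF1, a transcription factor, and the guanylate binding proteins (GBPs), large GTPases that attack intracellular pathogens. In epithelial cells many of these genes also have a low level without added interferon.

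Stretches upstream of 7 members are shown because these genes stand for the patterns described below. Only stretches with a match were considered, so each shows a match by selection. CMPK2, for example, rose with EGF without a match in its window and is not shown. IRF1, GBP1, TAP1, ISG15 and IFIT5 were higher with EGF, IFIT1 lies beside IFIT5 and was not called with EGF, and HERC5 was lower. Each is the last 150 bases before the gene's start in the RefSeq window table (GRCh38.p14), 5′ to 3′ on the gene's strand. Capitals mark matches, on either strand, to the ISRE core GAAANNGAAA, the GAS core TTCNNNGAA or the NF-kB consensus that lie wholly within the stretch. An ISRE core of IFIT5 that begins at -4 runs past the start and is not marked. The AP-1 site TGANTCA was searched too but is not marked. Neighbouring matches can share bases, as in ISG15, TAP1 and HERC5, and then stand as 1 longer run of capitals.
IRF1 (chr5:132490774-132490923, minus strand): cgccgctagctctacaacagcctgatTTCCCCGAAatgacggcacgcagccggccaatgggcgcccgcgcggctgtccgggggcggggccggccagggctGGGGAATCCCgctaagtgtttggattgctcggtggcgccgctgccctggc
GBP1 (chr1:89065209-89065358, minus strand): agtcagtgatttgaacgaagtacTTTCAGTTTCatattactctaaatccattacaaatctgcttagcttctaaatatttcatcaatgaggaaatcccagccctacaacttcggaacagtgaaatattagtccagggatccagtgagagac
TAP1 (chr6:32853705-32853854, minus strand): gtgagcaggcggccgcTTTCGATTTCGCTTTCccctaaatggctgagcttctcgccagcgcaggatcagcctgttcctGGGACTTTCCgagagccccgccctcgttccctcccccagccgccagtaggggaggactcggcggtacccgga
ISG15 (chr1:1013347-1013496, plus strand): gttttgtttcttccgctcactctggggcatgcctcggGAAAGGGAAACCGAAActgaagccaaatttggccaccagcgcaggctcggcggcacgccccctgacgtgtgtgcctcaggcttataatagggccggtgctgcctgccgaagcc
IFIT1 (chr10:89392473-89392622, plus strand): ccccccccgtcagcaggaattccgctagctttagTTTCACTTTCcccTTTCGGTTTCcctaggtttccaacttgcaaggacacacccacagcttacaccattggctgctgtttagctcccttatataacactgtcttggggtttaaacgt
IFIT5 (chr10:89414418-89414567, plus strand): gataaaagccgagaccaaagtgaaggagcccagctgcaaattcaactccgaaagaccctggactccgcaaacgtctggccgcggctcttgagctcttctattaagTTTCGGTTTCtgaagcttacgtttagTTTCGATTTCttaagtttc
HERC5 (chr4:88456969-88457118, plus strand): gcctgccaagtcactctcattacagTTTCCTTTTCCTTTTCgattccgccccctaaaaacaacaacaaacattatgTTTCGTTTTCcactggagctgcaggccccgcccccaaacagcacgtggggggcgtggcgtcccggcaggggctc

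Windows of 250 bases before to 50 after the start were held for 44 of the 56 measured members. Those without a window here were GBP2, GBP5, HLA-E, IRF7, USP18, MX2, OAS2, OASL, IFIT2, IFITM2, TRIM22 and APOL1. An ISRE core match stood in the windows of 31 of the 44 members (70.5%), against 4.38% of the 27305 genes with a window. The GAS core was found in 14 members (31.8%, against 9.38%), the NF-kB consensus in 12 (27.3%, against 13.3%) and the AP-1 site in 6 (13.6%, against 9.37%). An ISRE core stood in 3 of the 4 interferon gamma type members with a window and in 20 of 29 antiviral type members. The GAS core stood in 2 of those 4 and in 9 of those 29. A match describes letters in the window and not a bound site.

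All values are the authors' log2 values, differences are log2 differences between group means ± SE of a limma fit over 21448 probe sets, and n was 2 arrays per group throughout. A gene is said to have risen, fallen or been called where its Benjamini-Hochberg adjusted p was under 0.05. Array backgrounds, set as the 95th percentile of 612 negative controls, ran from 7.14 to 7.65. Of the 56 members 49 lay above background on all 6 arrays, 6 on some and 1, IRF7, on none. A fold written "at least" is a lower bound, used where neither array of the dimmer group was above background. The number of arrays limits the precision. The GBPs, the IFITM genes and the HLA class I genes are close paralogs, so the split of signal within each family is uncertain.

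The line's identity was checked against listed markers. The 5 measured squamous epithelial markers of 8 listed lay above background on all arrays, and their summed level was 73.7 to 73.9 in control, 75.5 to 75.9 with EGF and 74.3 to 74.5 with EGF plus gefitinib. Single markers moved in opposite directions within that sum. SFN, a cell cycle inhibitor, was higher with EGF (1.02) and lower with EGF plus gefitinib than with EGF (-2.09) or in control (-1.07). EGFR was higher with EGF plus gefitinib than in either other group (0.87 and 0.91). The 6 measured leukocyte markers of 8, among them PTPRC and CD3E, were at or below background on every array, with summed levels of 27.0 to 27.1, 26.4 to 26.7 and 26.2 to 26.6. The 3 measured plasmacytoid dendritic cell markers of 4 were also below background on every array, with sums of 11.8 to 13.2 over the 6 arrays. Endothelial and fibroblast lists also moved with the groups. The 4 endothelial markers summed to 18.4 to 18.7 in control, 16.3 to 16.4 with EGF and 19.1 to 19.5 with EGF plus gefitinib. The lower sum with EGF came mainly through CDH5, near background (-2.22). With EGF plus gefitinib against control CDH5 differed by 0.34, PECAM1 by -0.32 and KDR by -0.16. VWF, below background on every array, differed there by 0.92. The 5 fibroblast markers summed to 33.1 in both control arrays, 29.3 to 30.2 with EGF and 30.1 to 31.1 with EGF plus gefitinib. LUM lay above background on every array and COL1A2 on both control arrays only. COL1A1, PDGFRB and DCN were below background on every array. LUM and DCN were called lower with EGF. The part of these markers in the results was not tested.

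**Figure D1:**
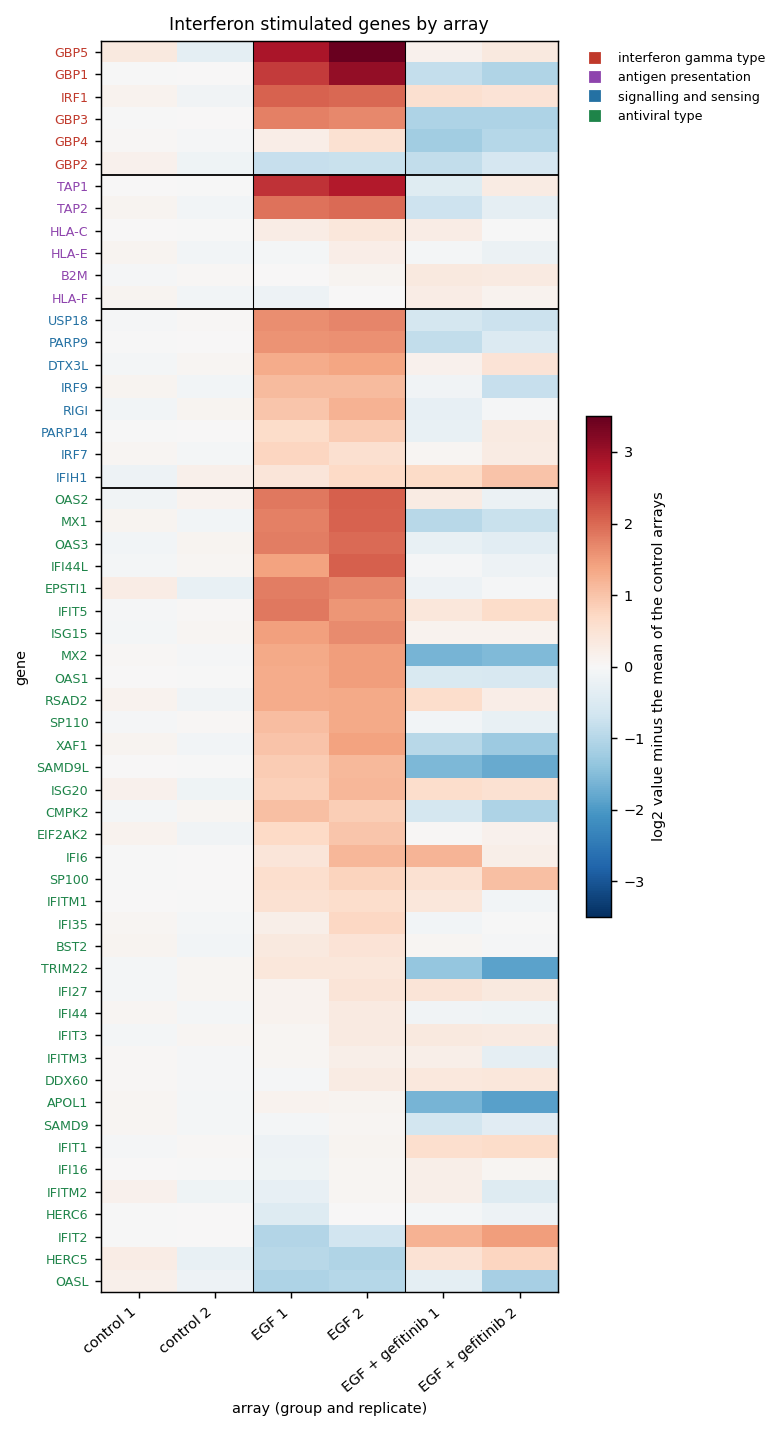
Heat map of the 56 measured interferon stimulated genes (rows, coloured by type) on the 6 arrays (columns). Colour is the log2 value minus the mean of both control arrays. Most rows are red on both EGF arrays and pale or blue on both EGF plus gefitinib arrays, while GBP2, IFIT2, HERC5 and OASL are blue with EGF.

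The first comparison set EGF against the starved control. EGF raised 27 of the 56 measured members, against 7.03% of all genes called higher, and lowered 3, against 5.78% called lower. The members' median difference was 0.78, beside -0.03 over all genes tested. Among members above background in both groups GBP1, IRF1, OAS2, TAP2 and MX1 rose most. GBP5 and TAP1, below background in control, rose too, by amounts that are lower bounds. GBP2, IFIT2 and HERC5 fell, and 26 members were not called. In these bulk RNA samples a change in the share of cells with a transcript and a change in RNA per cell cannot be told apart.

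Of the 6 interferon gamma type members 4 rose, 1 fell and 1 was not called, with a median difference of 1.88, or 1.30 with GBP5 at its lower bound. GBP1, the most studied guanylate binding protein, read 9.92 and 9.92 in control and 12.36 and 12.99 with EGF. That is a 6.74-fold rise of 2.75 ± 0.24 (limma adjusted p = 0.00134). GBP5, a GBP tied to inflammasome assembly, read 5.35 and 4.68 in control, below background, and 7.86 and 8.48 with EGF. It rose at least 1.84-fold, with a fitted difference of 3.15 ± 0.30 (adjusted p = 0.00168). For both genes each EGF array lay above both control arrays. Such separation is common with 2 arrays per group. In this comparison it held upward for 4924 and downward for 5173 of all 17687 genes.

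IRF1, the transcription factor that drives much of the interferon gamma response, read 8.81 and 8.58 in control and 10.76 and 10.71 with EGF. Its rise was 4.11-fold (2.04 ± 0.18, adjusted p = 0.00135). GBP3 read 11.83 and 11.85 in control and 13.61 and 13.52 with EGF, a 3.31-fold rise (1.73 ± 0.17). Both groups were far apart for each gene compared with the spread between arrays. GBP4 read 10.76 and 10.69 in control and 10.94 and 11.27 with EGF, a difference of 0.38 (95% interval -0.08 to 0.84) that was not called. GBP2 went the other way, from 12.65 and 12.37 to 11.72 and 11.74 (-0.78 ± 0.20, adjusted p = 0.044). The EGF arrays of GBP2 lay below both control arrays.

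Among the 6 measured antigen presentation members the peptide transporter moved and the class I molecules did not pass the test. TAP1 and TAP2 form the pump that carries peptides into the endoplasmic reticulum. TAP1 read 7.05 and 7.02 in control, below background, and 9.58 and 9.80 with EGF, a rise of at least 5.27-fold (2.65 ± 0.26, adjusted p = 0.00181). TAP2 read 9.09 and 8.90 in control and 10.90 and 10.97 with EGF, a 3.83-fold rise (1.94 ± 0.20). B2M, the light chain of all class I molecules, read 15.00 and 15.08 in control and 15.05 and 15.13 with EGF, so its groups overlapped. Its difference was 0.05, with a 95% interval from -0.35 to 0.45. The differences of HLA-C, HLA-E and HLA-F were 0.34, 0.09 and -0.09, with intervals reaching no higher than 0.77, 0.55 and 0.35.

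Of the 8 measured signalling and sensing members 5 rose and 0 fell, with a median difference of 1.10. USP18, the protease that removes ISG15 and dampens the type I receptor, read 8.81 and 8.89 in control and 10.49 and 10.55 with EGF (1.67 ± 0.17, 3.17-fold). PARP9 and DTX3L, which form a complex of an inactive ADP-ribosyltransferase and a ubiquitin ligase, rose by 1.59 ± 0.20 and 1.33 ± 0.19. IRF9, the DNA binding partner of the STATs, read 9.75 and 9.56 in control and 10.76 on both EGF arrays (1.10 ± 0.25, adjusted p = 0.0317). RIGI, a sensor of viral RNA, rose by 1.09 ± 0.20. The other sensor, IFIH1, differed by 0.56 and PARP14 by 0.77, and neither passed the test. IRF7, the master factor of interferon alpha production, was below background in every array.

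The antiviral type held 36 members, of which 16 rose, 2 fell and 18 were not called, with a median difference of 0.63. All 3 classical oligoadenylate synthetases, which make the activator of RNase L, rose. OAS2 read 8.37 and 8.60 in control and 10.34 and 10.57 with EGF (1.96 ± 0.22). OAS3 read 10.17 and 10.35 in control and 12.06 and 12.26 with EGF (1.89 ± 0.18), and OAS1 rose by 1.39 ± 0.17. OASL, a relative without synthetase activity, read 12.66 and 12.33 in control and 11.42 and 11.48 with EGF. Its difference of -1.04 was not called (adjusted p = 0.0604).

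Both MX dynamin-like GTPases, which trap viral particles, rose. MX1 read 12.59 and 12.42 in control and 14.26 and 14.55 with EGF, a 3.75-fold rise (1.91 ± 0.20), and MX2 rose by 1.39 ± 0.17. ISG15, a ubiquitin-like modifier, read 9.39 and 9.54 in control and 10.91 and 11.11 with EGF, a 2.92-fold rise (1.55 ± 0.18, adjusted p = 0.00328). Each of these EGF arrays stood above both control arrays. IFIT5, an RNA binding protein, read 9.45 and 9.53 in control and 11.33 and 11.04 with EGF, a 3.24-fold rise (1.70 ± 0.19).

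The remaining rises of the antiviral type ranged from 0.83 for EIF2AK2, the kinase PKR that stops translation on double-stranded RNA, to 1.75 for IFI44L. Between these lay EPSTI1 (at least 1.23-fold), RSAD2, the radical enzyme viperin (1.31), SP110, a nuclear body protein (1.21), XAF1 (1.20), SAMD9L (1.01), ISG20, an RNA exonuclease (at least 1.61-fold), and CMPK2, a nucleotide kinase (0.96). IFIT2, an RNA binding protein of the IFIT family, read 12.38 and 12.42 in control and 11.38 and 11.73 with EGF, a fall (-0.85 ± 0.20, adjusted p = 0.0367). HERC5, the ligase that attaches ISG15 to proteins, read 10.62 and 10.09 in control and 9.37 and 9.30 with EGF, also a fall (-1.02 ± 0.23, adjusted p = 0.0304). The members not called ran from -1.04 for OASL to 0.79 for IFI6, whose EGF arrays were 13.80 and 14.55. IFIT1, IFIT3, IFI16 and SAMD9, with high levels in every group, differed by -0.03, 0.19, -0.04 and 0.01, and their intervals stayed between -0.46 and 0.62. The membrane proteins that block virus entry, IFITM1, IFITM2 and IFITM3, differed by 0.57, -0.11 and 0.13, and BST2, the tether of budding virus, by 0.42. SP100, a nuclear body protein, differed by 0.68, IFI35 by 0.46, IFI27 by 0.28 and DDX60, an RNA helicase, by 0.13, and none of these passed the test.

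**Figure D2:**
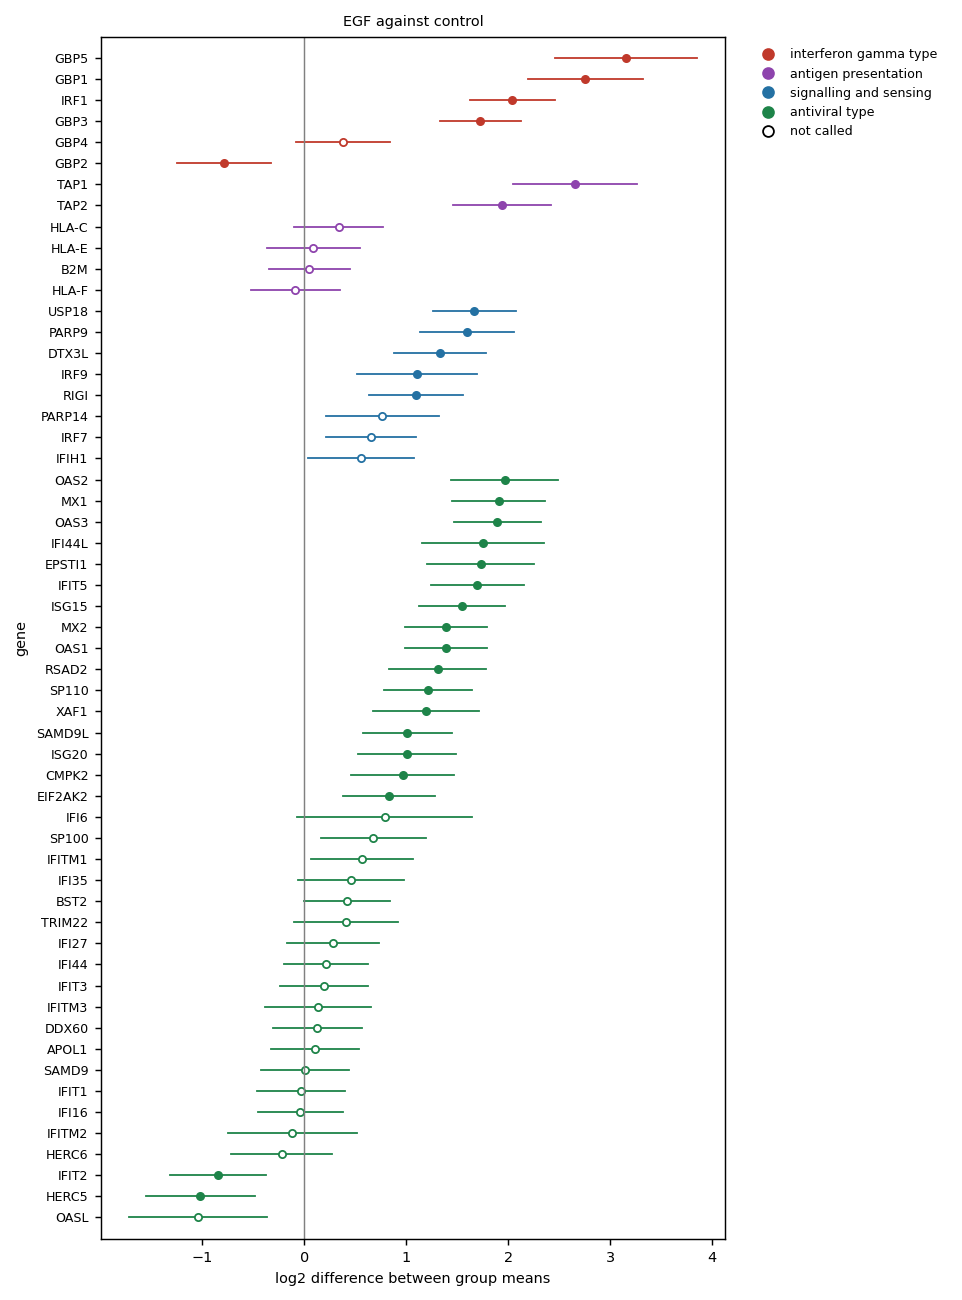
Log2 difference between the EGF and control group means (x axis) for each member (y axis), with 95% intervals, filled where called at adjusted p under 0.05 and coloured by type. The filled points run from -1.02 for HERC5 to a fitted 3.15 for GBP5, which is below background in control, and 27 of the 30 lie right of 0.

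With a control or EGF array left out these counts shrank. Without EGF replicate 2 the fit called 17 members higher, and 18, 19 and 20 without control replicate 1, control replicate 2 or EGF replicate 1. The 10 rises lost in at least 1 of these fits were those of CMPK2, DTX3L, EIF2AK2, IRF9, ISG20, RIGI, RSAD2, SAMD9L, SP110 and XAF1, at adjusted p of 0.0513 to 0.179. All 3 falls were lost in at least 1, at 0.0805 to 0.209, with 1 left without control replicate 2 and 0 without each of the other 3.

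The second comparison set EGF plus gefitinib against EGF, and it shares the EGF arrays with the first. With gefitinib 29 members were lower, against 10.5% of all genes called lower, and 3 were higher, against 9.08% called higher. The median difference was -0.81, beside 0.03 over all genes. Among members above background in both groups GBP1, GBP3, MX1, SAMD9L and TAP2 were lowered most, while IFIT2, HERC5 and IFIT1 were raised.

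Interferon gamma type members fell in 5 of 6 cases, with a median of -2.16, or -1.51 with GBP5 at its bound. GBP1 read 9.08 and 8.87 with gefitinib, below all EGF and control arrays, a 13.0-fold fall from EGF (-3.70 ± 0.24, adjusted p = 0.000289). GBP3 read 10.77 and 10.76, a 6.98-fold fall (-2.80 ± 0.17). GBP5 returned below background at 5.16 and 5.36, a fall of at least 1.62-fold (fitted -2.91 ± 0.30). IRF1 read 9.25 and 9.17, between the control and EGF arrays (-1.52 ± 0.18, adjusted p = 0.0019). GBP4, not called with EGF, read 9.50 and 9.71 and fell 2.82-fold (-1.50 ± 0.20). GBP2 read 11.64 and 11.92, overlapping its EGF arrays, with a difference of 0.05 (95% interval -0.41 to 0.51).

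Antigen presentation again divided. TAP1 read 6.62 and 7.33 with gefitinib, with 1 of 2 arrays above background, a fall with a fitted difference of -2.71 ± 0.26, and TAP2 read 8.27 and 8.68, a 5.51-fold fall (-2.46 ± 0.20). B2M, HLA-C, HLA-E and HLA-F differed by between -0.22 and 0.28 and were not called. Of the signalling and sensing members USP18 (-2.35 ± 0.17), PARP9 (-2.26 ± 0.20), IRF9 (-1.56 ± 0.25), RIGI (-1.26 ± 0.20) and DTX3L (-1.02 ± 0.19) fell. PARP14, IRF7 and IFIH1 were not called, and IFIH1 read 10.21 and 10.53 with gefitinib beside 9.96 and 10.25 with EGF.

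In the antiviral type 17 members fell and 3 rose, with a median of -0.53. MX2, near background in control at 7.30 and 7.23, went from 8.59 and 8.72 with EGF to 5.63 and 5.73, a fall of at least 2.27-fold (fitted -2.97 ± 0.17). MX1 fell 6.88-fold, to 11.53 and 11.72 (-2.78 ± 0.20). SAMD9L, a translation regulator that restricts poxviruses, read 11.84 and 12.10 with EGF and 9.37 and 9.20 with gefitinib (-2.68 ± 0.19). In each of these the gefitinib arrays lay below the control arrays as well as the EGF arrays. XAF1, a pro-apoptotic protein, fell by 2.32 on the log2 scale. OAS3, OAS1 and OAS2 fell by 2.20, 1.93 and 1.92, and ISG15 fell 2.68-fold, to 9.59 and 9.58.

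Other members fell although they were not called with EGF. TRIM22, a ubiquitin ligase that restricts viral transcription, read 10.34 and 10.48 in control, 10.82 on both EGF arrays and 9.07 and 8.55 with gefitinib (-2.01 ± 0.22, adjusted p = 0.00142). APOL1, the trypanosome-lysing apolipoprotein, read 12.14 and 12.01 in control, 12.21 and 12.16 with EGF and 10.44 and 10.18 with gefitinib (-1.87 ± 0.18, adjusted p = 0.00102). For both, the gefitinib arrays were the low ones and the control and EGF arrays lay close together.

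IFIT2 read 13.63 and 13.87 with gefitinib, above every control and EGF array, a 4.58-fold rise over EGF (2.20 ± 0.20, adjusted p = 0.000809). HERC5 read 10.86 and 11.11, a 3.14-fold rise (1.65 ± 0.23, adjusted p = 0.00337). IFIT1 read 11.55 and 11.82 with EGF and 12.31 and 12.36 with gefitinib (0.65 ± 0.18, adjusted p = 0.048). IFIT1 was lost without any 1 of the 6 arrays, at adjusted p of 0.0799 to 0.234. DTX3L, EIF2AK2, IFIT5 and RSAD2 were lost in at least 1 fit without an array, at adjusted p of 0.0525 to 0.188. EIF2AK2 was lost without each array in turn and by both scalings.

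**Figure D3:**
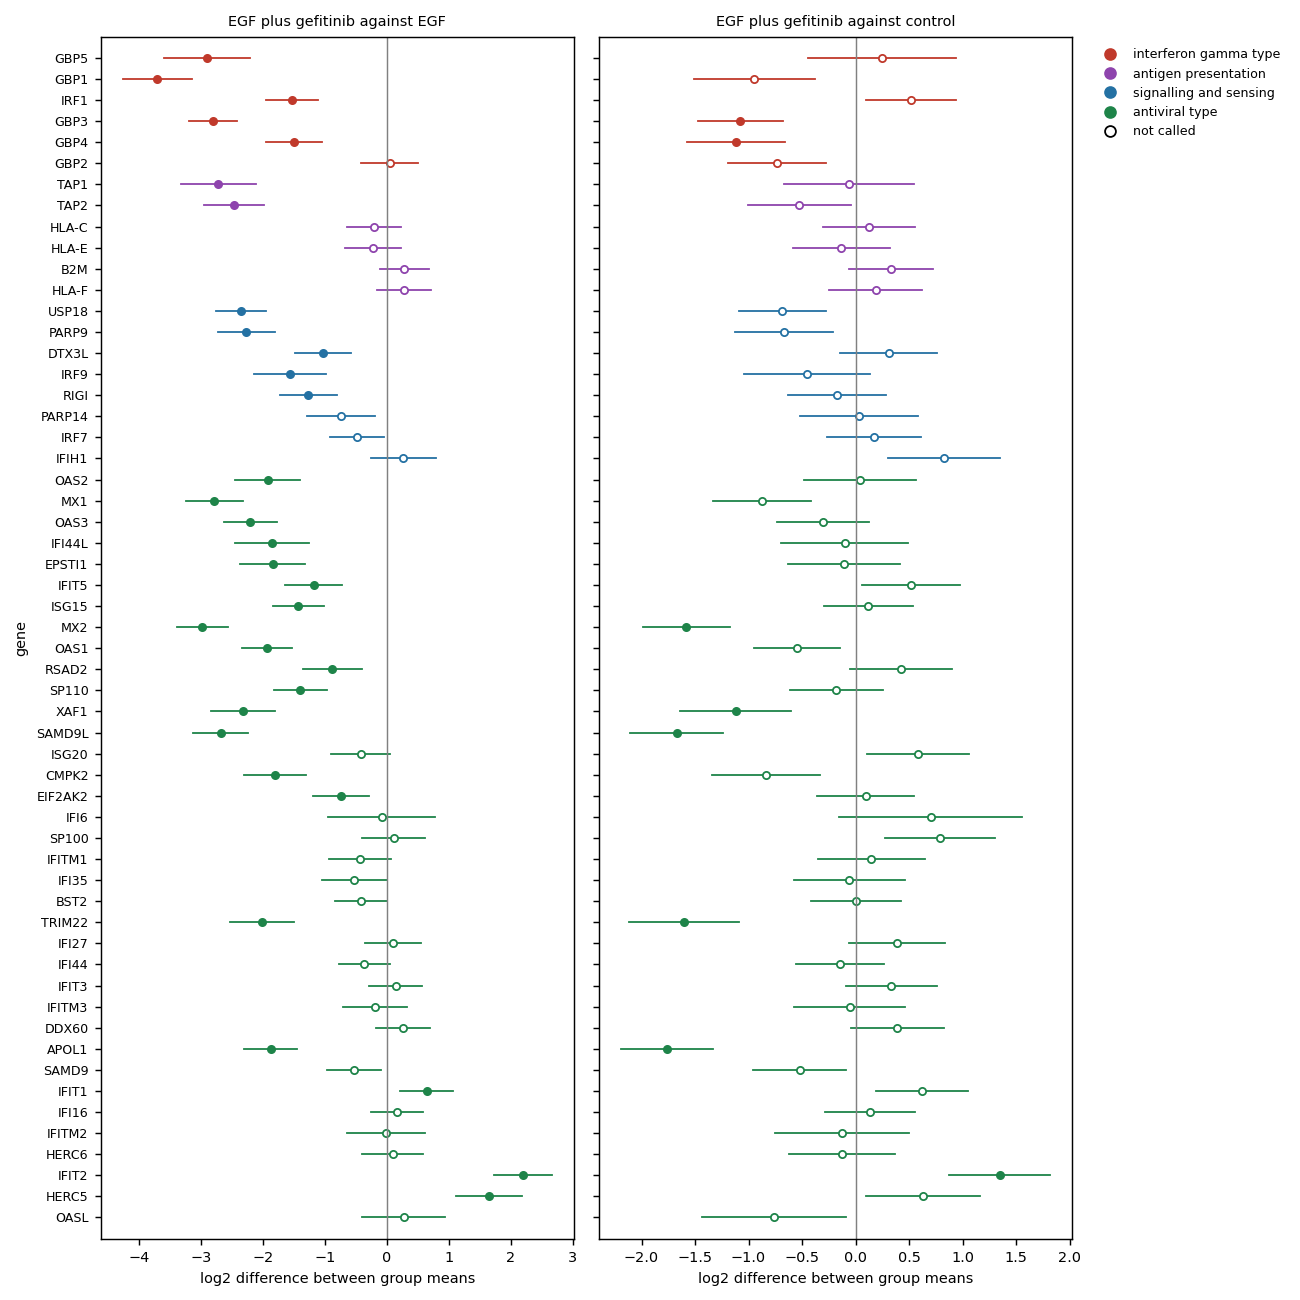
Log2 differences between group means for each member (y axis) with 95% intervals, EGF plus gefitinib against EGF (left) and against control (right), each panel with its own x axis, filled where called. On the left 29 filled points lie below 0 and 3 above; on the right 7 lie below and IFIT2 alone above.

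The third comparison set EGF plus gefitinib against control. Here 48 members were not called, 7 were lower, against 1.92% of all genes called lower, and 1 was higher, against 2.31% called higher. The median difference was -0.06, beside -0.002 over all genes. APOL1 (-1.76 ± 0.18, 3.40-fold, adjusted p = 0.00925), SAMD9L (-1.67 ± 0.19, 3.19-fold) and TRIM22 (-1.60 ± 0.22, 3.04-fold) were the lowest with a measured fold. MX2 differed by -1.58 ± 0.17, with 1 control array and no gefitinib array above background. XAF1 (-1.12), GBP4 (-1.11) and GBP3 (-1.08) were the other members called lower. IFIT2 was higher (1.35 ± 0.20, 2.55-fold, adjusted p = 0.0214).

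IRF1 differed from control by 0.52 (95% interval 0.10 to 0.94) and GBP1 by -0.94 (-1.51 to -0.38), and neither passed the adjusted test. ISG15 differed by 0.12 (-0.30 to 0.54), OAS3 by -0.31 (-0.74 to 0.12) and TAP1 by -0.06 (-0.67 to 0.54). None of the 8 calls held without control replicate 1 or control replicate 2, nor without EGF plus gefitinib replicate 2, and 3 held without EGF plus gefitinib replicate 1. When only probe sets above background on at least 2 arrays were tested, 15 members were called lower and 8 higher. The share of all genes called under that filter was not counted, so these counts have no share to be set beside.

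Interferon gamma type and antiviral type members were set side by side, with no test of their difference. With EGF 4 of 6 and 16 of 36 were called higher, with median differences of 1.88 and 0.63, or 1.30 and 0.52 with members below background in 1 group at their bounds. With gefitinib against EGF 5 of 6 and 17 of 36 were called lower, with medians of -2.16 and -0.53, or -1.51 and -0.47 with bounds. Against control the EGF plus gefitinib medians were -0.84 and -0.06. The second of these has no settled sign: it was 0.014 without control replicate 1, 0.05 without EGF plus gefitinib replicate 2 and -0.127 without EGF plus gefitinib replicate 1. The ranges overlapped in each comparison. With EGF, among members above background in both groups, the gamma type ran from -0.78 for GBP2 to 2.75 for GBP1, and the antiviral type from -1.04 for OASL to 1.96 for OAS2. Of the 50 measured members outside the gamma type 23 were called higher with EGF and 24 lower with gefitinib.

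Several members are neighbours on a chromosome, by their order in the RefSeq gene table. Some neighbours had unlike values and others were called alike. On chromosome 1 the GBP genes lie in the order GBP3, GBP1, GBP2, GBP4 and GBP5, and their EGF differences were 1.73, 2.75, -0.78, 0.38 and, as fitted from below background in control, 3.15. On chromosome 10 the order is IFIT2, IFIT3, IFIT1 and IFIT5, with differences of -0.85, 0.19, -0.03 and 1.70. SAMD9 and SAMD9L on chromosome 7 differed by 0.01 and 1.01, IFI44L and IFI44 on chromosome 1 by 1.75 and 0.21, and HERC6 and HERC5 on chromosome 4 by -0.22 and -1.02. By contrast all 3 OAS genes on chromosome 12, both MX genes on chromosome 21, and RSAD2 with CMPK2 on chromosome 2 were called higher. So were PARP9 with DTX3L on chromosome 3, and TAP1 with TAP2 on chromosome 6. PARP14, the next member after DTX3L, differed by 0.77 and was not called. On chromosome 2 SP110 rose by 1.21, while SP100, with 2 coding genes between, differed by 0.68 and was not called. Between TAP2 and TAP1, GBP2 and GBP4, IFIT3 and IFIT1, and DTX3L and PARP14 lies 1 coding gene each. Differences between neighbours were not tested.

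**Figure D4:**
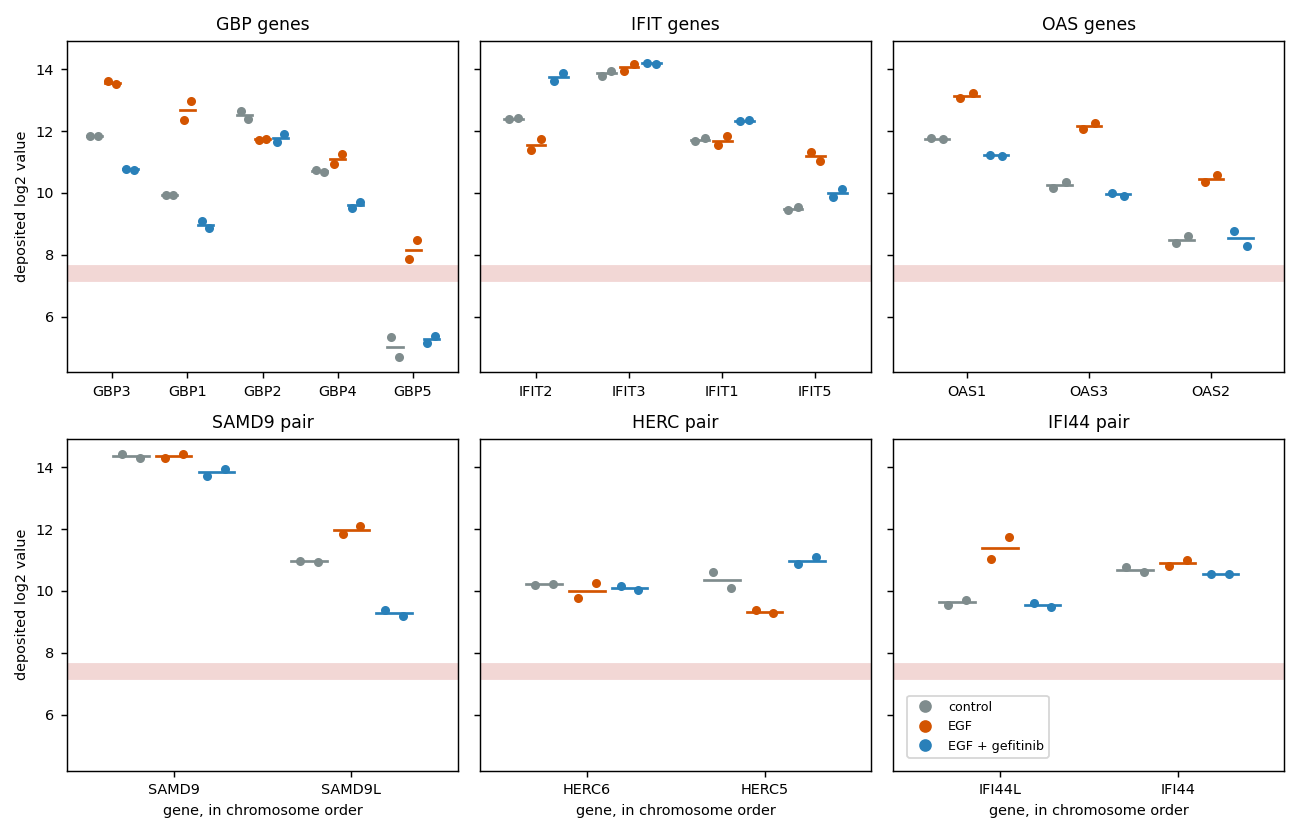
Deposited log2 values (y axis) of members that are chromosome neighbours (x axis, in order), with a point per array, a bar at the group mean and colour for the group. The shaded band spans the background limits of the 6 arrays, 7.14 to 7.65. EGF points are highest for, among others, GBP1, GBP3, GBP5, IFIT5, SAMD9L, IFI44L and the OAS genes, and lowest for IFIT2 and HERC5.

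The other genes of the pathway were read from lists by role. All 7 measured interferon genes of 8 listed, including IFNB1, IFNG and IFNL1, were below background on every array, and none was called in any comparison by limma. At an unadjusted p under 0.05 IFNA1 was lower than control in both treated groups. Of all 17687 genes, 2370 with EGF and 1920 with EGF plus gefitinib were also lower than control at that level. Of the 6 receptor chains IFNGR2, the signalling chain of the interferon gamma receptor, rose with EGF, from 13.12 and 13.01 to 14.55 and 14.59 (1.51 ± 0.18, adjusted p = 0.00391). With gefitinib it read 13.45 and 13.18, a fall of 1.25 from EGF, and IFNAR2 fell by 0.82. IFNGR1 had group means from 9.05 to 9.13 and was not called. The median EGF difference of the 6 chains was 0.25.

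Among the 8 measured kinases, STATs and IRFs only STAT3 rose with EGF (0.85 ± 0.17), and it fell with gefitinib (-0.77 ± 0.17). JAK1, the kinase shared by all interferon receptors, differed by -0.30 with EGF and by 0.76 with gefitinib against EGF, and neither was called. IRF3 fell with gefitinib against EGF but was below background throughout.

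The 9 nucleic acid sensors and adaptors went in both directions, with 2 higher and 2 lower with EGF. CGAS, the sensor of cytosolic DNA, read 9.07 and 9.25 in control, 11.28 and 11.40 with EGF and 9.09 and 9.26 with gefitinib, a 4.51-fold rise and a 4.46-fold fall. AIM2, an inflammasome sensor of DNA, rose by 1.36 ± 0.27. STING1, the adaptor downstream of CGAS, read 11.41 and 11.33 in control and 10.27 and 10.08 with EGF (-1.19 ± 0.17), and TLR3, an endosomal sensor of RNA, fell by 1.58. Against EGF, gefitinib lowered CGAS and AIM2 and raised TLR3, STING1 and MAVS. None of the 9 was called with EGF plus gefitinib against control. There 2 were lower at an unadjusted p under 0.05, as were 1920 of all 17687 genes.

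Of the 6 inhibitors PTPN6, a phosphatase, fell with EGF (-1.06 ± 0.21) and rose with gefitinib against EGF (0.97 ± 0.21). The EGF differences of the 6 were positive for 3 and negative for 3. SOCS3, below background on every array, differed with EGF by 1.14 and PIAS4 by 0.41, and neither was called. SOCS1 rose with gefitinib against EGF but was below background on every array. Among 8 measured class I presentation genes NLRC5, the class I transactivator, rose with EGF by 1.79 ± 0.21 without leaving the background range. PSMB8, PSMB9 and PSMB10, the immunoproteasome subunits, differed with EGF by -0.03, 0.06 and -0.25 and fell with gefitinib against EGF by 0.92, 0.99 and 1.56. PSMB10 was also lower than control (-1.81 ± 0.23, adjusted p = 0.0146). CXCL9, CXCL10 and CXCL11, ligands of CXCR3, and IDO1, a tryptophan-degrading enzyme, are all classical gamma type targets outside the 58. All 4 rose with EGF and fell with gefitinib. They were below background on every control and gefitinib array, so their folds are lower bounds. CXCL10 read 4.79 and 4.63 in control, 9.79 and 10.78 with EGF and 4.48 and 5.01 with gefitinib. That is a rise of at least 7.99-fold and a fall of at least 7.05-fold. CXCL9 rose at least 1.64-fold and fell at least 1.45-fold.

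The promoter matches were set beside the EGF calls as a description. An ISRE core stood in the windows of 15 of the 23 members with a window that were higher with EGF, in HERC5, the 1 that was lower, and in 15 of the 20 not called. The median EGF difference was 0.79 for members with an ISRE core and 1.01 for those without. For the GAS core the counts were 8 of 23 higher and 6 of 20 not called. For the NF-kB consensus they were 6 of 23 and 6 of 20, and for the AP-1 site 5 of 23 and 1 of 20. The medians with and without a GAS core were 1.16 and 0.81. They were 0.82 and 0.90 for the NF-kB consensus and 1.35 and 0.78 for the AP-1 site. In the stretches printed above, IRF1 has a GAS core at -124 from the start and no ISRE core, GBP1 has an ISRE core at -127, and both IFIT1, not called with EGF, and IFIT5, which rose, have ISRE cores. HERC5, which fell, has 3 ISRE cores in its stretch.

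**Figure D5:**
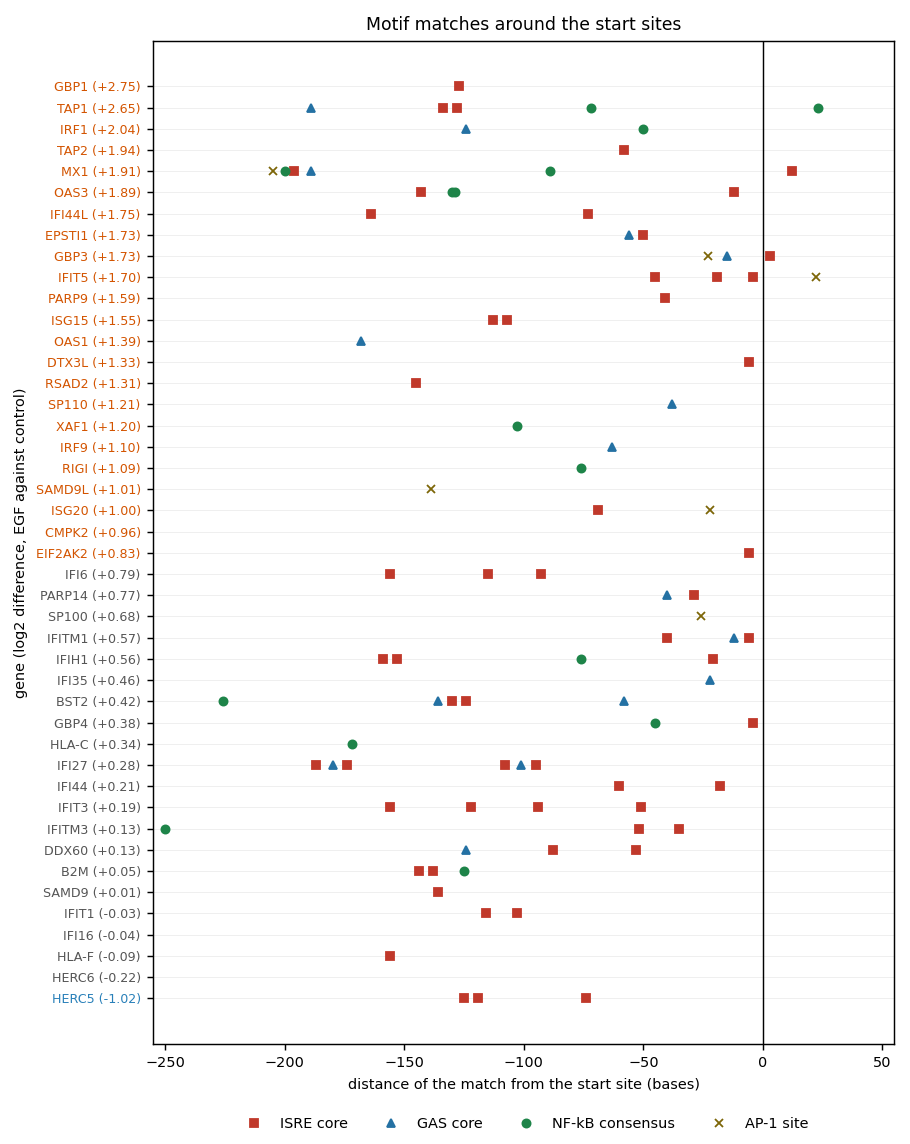
Distance in bases of each motif match from the start site (x axis, 0 at the vertical line) for the 44 members with a window (y axis), ordered by the EGF difference in brackets, with label colour for the EGF call (orange higher, grey not called, blue lower). A gene with more than 1 window is drawn on 1 line. Red ISRE squares appear from the top to the bottom of the order.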

How the data were processed

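Total RNA of the 6 samples was biotin-labelled with the Affymetrix WT PLUS kit, per the labels' protocols, and measured on 1 array each. Values were used as deposited by the authors, in log2 units judging by their range of 1.58 to 18.9. The submitters' processing notes name Transcriptome Analysis Console. No version, background correction or normalization method is stated in the sources, and a different normalization could move all values of an array together.

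The members and lists were chosen with earlier results of these data known. Of 24351 probe sets 2903 controls were left out, and all 21448 transcript probe sets were fitted with limma 3.58.1 (lmFit, eBayes) in R 4.3.3, with 3 group means, 3 residual and 4.22 prior degrees of freedom, no block and no filter on low values. Tests were two-sided, with Benjamini-Hochberg adjustment over all 21448. The platform annotation gave 1 symbol for 17709 of them and none for 3739. The brightest probe set stood for the 20 genes with more than 1. A lower-bound fold sets the mean of the brighter group over the dimmer group's averaged background limits. The text names all members, and up to 3 genes of each pathway list with the largest EGF statistic, beside further pathway genes that were called or stand in the same family, chosen after their values were seen. Motifs were searched with Python 3.11.15 on both strands. The fit was tested on simulated data. Alternatives were other fits, scalings, filters, backgrounds and single arrays left out.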

Additional observations from a re-analysis of the deposited data

How the results depend on the processing

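No member's difference among those checked turned its sign with a call under any alternative. With EGF, 17 to 28 members were called higher with single arrays left out and 0 to 4 lower, and 1 was lower with the replicate number as a block. With gefitinib against control, the higher count was 8 with the dim filter and 8 with an intensity trend and robust prior, and 0 to 1 with single arrays left out. The lower count was 4 on the comparison's own 4 arrays, 4 with the block, 15 with the dim filter, 16 with the trend, and 0 to 4 with single arrays left out. The filter and the trend change the adjustment or the spread, and their part was not tested further. The share of all genes called under either setting was not counted. All other counts stayed within 1.5 times. The gamma type median with EGF was 1.802 after quantile normalization and 1.796 after centring on probe sets above background. With gefitinib against EGF it was -2.084 after centring and -2.208 to -2.074 with single arrays left out. With members below background in 1 group at their bound, an alternative chosen after seeing the data, the gamma type medians of the 3 comparisons were 1.303, -1.51 and -0.945. The antiviral type median ran from 0.467 to 0.75 with EGF and from -0.694 to -0.416 with gefitinib against EGF when single arrays were left out, and against control from -0.127 to 0.05, so its sign there is unsettled. Centring moved the median of all probe sets to -0.12 with EGF and 0.13 with gefitinib against EGF, and changes are to be read relative to it. Deviations of same-numbered arrays correlated at -0.041, 0.0213 and -0.0035, so the numbers were not taken as pairs. With the 90th percentile as background 51 members lay above it on all arrays, beside 49. Members near background, such as GBP5, TAP1, MX2, EPSTI1, ISG20 and CMPK2, are limited by signal.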
